A study of Mus musculus with 4 samples.

Results

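The glycolytic genes described here are 10 genes of 16702 in the deposited table: Hk1 and Hk2 (hexokinases), Aldoa and Aldoc (aldolases), Tpi1 (triosephosphate isomerase), Eno1 and Eno2 (enolases), Pkm (pyruvate kinase), and Ldha and Ldhb (lactate dehydrogenase subunits). They were chosen by gene identity, through the Ensembl identifier of each isoform, and hold 33 isoforms of 44325. The mice were male and wild-type, of the inbred strain C57BL6/J, and their retinas were dissociated with papain. The cells were made into 4 single-cell libraries, whose cDNA was read as long molecules by nanopore sequencing. Per the labels, 2 libraries had no enrichment (1 at postnatal day 40, the age of the other not used here), 1 had CD73 enrichment at postnatal week 8 and 1 had CD90.2 enrichment at postnatal month 4. CD73 marks photoreceptors and CD90.2 marks neurons such as ganglion cells. The labels' protocols describe bead separation that removed cells with CD73 and kept cells with CD90.2, while FACS is named in the design text of the series. The table gives whole-number counts in 6 cell classes: rods, cones, bipolar cells, amacrine cells, ganglion cells and Müller glia. Its columns name no library, so each class is 1 pooled sample, age and enrichment cannot be told apart from class, and no test between classes was possible. Intervals below are exact 95% intervals (Clopper-Pearson for shares, Poisson for levels) and cover counting error only.

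Glycolysis splits glucose into pyruvate in the cytosol, and lactate dehydrogenase converts pyruvate to lactate and back. The retina is known for making lactate from glucose even when oxygen is plentiful, and photoreceptors are held to be its main site. Several steps have a choice of enzyme forms. Hexokinase 1 is the general brain form and hexokinase 2 an inducible form found in photoreceptors, muscle and tumours. Pkm carries a pair of mutually exclusive exons: M1 gives an always active enzyme typical of adult neurons and muscle, and M2 gives an enzyme regulated by metabolites and phosphorylation. Lactate dehydrogenase is a tetramer of A subunits (Ldha), abundant in lactate-producing tissue, and B subunits (Ldhb), abundant in oxidative tissue.

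The 10 genes together took 2.15% of all counts in rods, 1.62% in Müller glia, 1.59% in cones, 1.48% in bipolar cells, 1.22% in ganglion cells and 0.893% in amacrine cells. Column totals ran from 3509890 counts (ganglion cells) to 55437340 (rods), so ganglion cell values are the least precise. All 6 fixed markers of each class were highest in their own column. Rod markers summed to 65190 CPM (counts scaled to 1000000 per column) in rods and 6733 CPM in bipolar cells, 10.3% of the rod level. They summed to 34.8% of it in cones, 9.81% in Müller glia and 0.587% in amacrine cells, and stood at 2 counts in ganglion cells. The Müller glia column was also the highest of the 6 for 6 of 6 microglial, 3 of 3 detected astrocyte, 3 of 3 detected pericyte, 3 of 4 pigment epithelium and 3 of 3 red blood cell markers. Their summed levels there were 1238, 111, 355, 8805 and 10272 CPM, against at most 569, 4.07, 12.8, 62.4 and 2114 CPM in any other column. The part of these other cells in the Müller glia values below was not tested. In such pooled counts, fewer cells with a transcript and fewer copies per cell cannot be told apart.

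A gene was taken as high or low in a class when its CPM was at least 2-fold above or below the median of the other 5 classes. A high class also needed more than 3 counts, and levels under that of 3 counts were taken as that level. Hk2 had 0 counts in amacrine cells, Müller glia and ganglion cells, with a median of 0.207 CPM in the others. There 3 counts would be 0.0622, 0.489 and 0.855 CPM, so by depth only amacrine cells could be called low. In rods 5 of the 10 genes were high (Eno1, Hk1, Hk2, Ldha and Pkm), beside 21.0% of the 16256 genes with at least 10 counts, and Ldhb and Tpi1 were low, beside 17.2%. In cones 4 were high (Hk1, Hk2, Ldha and Pkm; 15.2% of all genes) and Ldhb was low (12.2% of all genes). Müller glia had 3 high (Aldoc, Eno1 and Ldhb; 21.5% of all genes) and 5 low (Aldoa, Eno2, Hk1, Pkm and Tpi1; 14.0% of all genes). In amacrine cells 1 was high (Ldhb; 22.6% of all genes) and 4 were low (Eno1, Hk1, Hk2 and Pkm; 20.1% of all genes). Bipolar cells had Hk1 and Tpi1 high (18.1% of all genes) and Ldhb low (10.2% of all genes). Ganglion cells had Ldhb high (14.8% of all genes) and Hk1 low (17.6% of all genes). The median member stood at a log2 difference of 0.91 above the other classes in rods, where the median over all genes was 0.13, and at -0.77 in Müller glia, where it was 0. With another scaling the lists of amacrine cells, cones, Müller glia, rods and ganglion cells changed by 1 to 3 genes. Under the median of ratios Ldhb was no longer high in amacrine or ganglion cells nor low in cones, and Aldoa, Pkm and Tpi1 were no longer low in Müller glia. In rods Tpi1 was no longer low and Eno2 became so, and in ganglion cells Eno1 became low. Values close to the 2-fold limit were those of Tpi1 in rods (0.498) just inside it, and of Pkm in ganglion cells (0.505) and bipolar cells (1.98-fold) just outside.

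**Figure D1:**
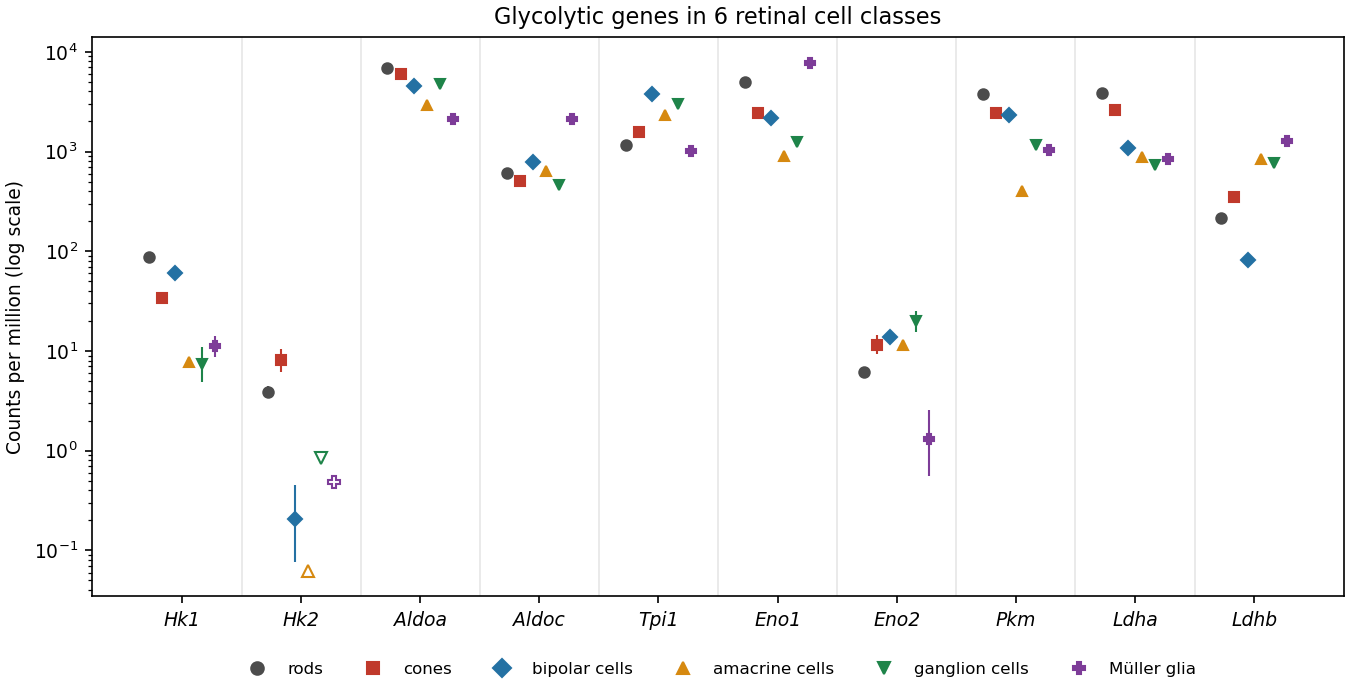
Level of each glycolytic gene in the 6 cell classes, in CPM on a log axis; vertical lines are exact 95% Poisson intervals, and open symbols mark the level of 3 counts where a gene had 0. Rods and cones are the highest classes for Hk2, Aldoa, Pkm and Ldha, and Müller glia for Aldoc, Eno1 and Ldhb.

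Isoforms could be compared between classes where a gene had at least 100 counts in both classes of a pair and more than 1 isoform, which 5 of the 10 genes met. The most abundant isoform differed, with a share that differed by at least 50 percentage points, in 2 of these 5 genes, Pkm and Hk1. Over all genes the same rule held for 487 of 4781, or 10.2%. Pkm met it in 8 of 15 class pairs and Hk1 in 4 of 6. Aldoa kept 1 isoform above all others in 15 of 15 pairs, with shares within 0.0513 percentage points, and Ldhb in 15 of 15, within 5.32 points. Aldoc, Ldha, Eno1 and Tpi1 each had a single isoform in the table. In all, 21 of the 33 isoforms were unannotated, and they held 0.454% of the 2313121 counts. The hexokinases differed from this, as annotated isoforms held only 1319 of 7290 Hk1 counts and 18 of 279 Hk2 counts.

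Hk1 (chr10:62268855-62379908, minus strand, GRCm38), which adds the first phosphate to glucose, was read mostly from different first exons in the rod and cone columns and in those of the other neurons. The upstream first exon, chr10:62340013-62340163 in the deposited models, carries the start codon of the annotated protein and encodes the short stretch by which hexokinase 1 is known to bind mitochondria. The downstream first exon, chr10:62327403-62327767, lies in the annotated intron that follows it and appears in GENCODE M21 in 1 transcript. A 69-nucleotide cassette exon at chr10:62291975-62292043 was read as a spliced exon only after the downstream start. The coding parts of both first exons are shown because they are what differs between the classes, with the start codon in capitals, and the cassette exon is shown in lower case, all 5′ to 3′ from the GENCODE M21 transcripts (GRCm38, minus strand).
Hk1 upstream coding start: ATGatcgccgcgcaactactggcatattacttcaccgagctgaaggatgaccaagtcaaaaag
Hk1 downstream coding start: ATGgcatgtcctgtgcagaag
Hk1 cassette exon: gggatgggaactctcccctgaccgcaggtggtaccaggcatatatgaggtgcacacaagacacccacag
The upstream exon gives 21 codons before the shared second exon and the downstream exon 7. The cassette is 69 nucleotides long, a whole number of codons.

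Hk1 stood at 87.3 CPM in rods, 60.0 in bipolar cells and 33.7 in cones, and lower, at 11.1 in Müller glia, 7.71 in amacrine and 7.41 in ganglion cells. Rods, bipolar cells and cones were thus the 3 high classes, and the intervals of the 3 low classes in that order were 8.61 to 14.1, 6.95 to 8.53 and 4.84 to 10.9 CPM. That of ganglion cells overlapped both others, while Müller glia and amacrine cells lay just apart. By annotated transcripts alone, which leaves out both isoforms with the downstream start and the 8-exon isoform described below, Hk1 was neither high in rods (1.90-fold) and cones (0.739-fold) nor low in amacrine cells, Müller glia and ganglion cells. The downstream first exon made up 72.7% of Hk1 counts in rods (3515 of 4838, interval 71.4 to 73.9) and 67.9% in cones (167 of 246, interval 61.7 to 73.7). It made up 12.1% in amacrine cells (45 of 372), 7.35% in Müller glia (5 of 68) and 2.18% in bipolar cells (38 of 1740). In ganglion cells it had 0 of 26 counts, where 3 counts would be 11.5% and the exact 95% upper limit is 13.2%. Rods and cones overlapped each other and neither overlapped any other class.

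On the CPM scale the downstream start stood at 63.4 in rods and 22.9 in cones, and between 0.815 and 1.31 in Müller glia, amacrine cells and bipolar cells. Relative to rods this was 36.0% in cones. The summed rod markers stood at 34.8% there, but single ones ran from 2.53% to 49.0% (Gngt1), with a median of 4.10%. In bipolar cells the downstream start stood at 2.07% of its rod level, inside the 1.54% to 14.3% of the 6 rod markers, and in Müller glia at 1.29%, inside their 0.984% to 11.6%. In amacrine cells it stood at 1.47%, above their 0.554% to 0.969%. The part of rod RNA in these values was not tested beyond a subtraction of rod counts at the highest of these marker ratios, chosen after the data were seen, under which the bipolar and Müller glia shares became 0 and the amacrine share 5.01%. In cones that subtraction left the equivalent of 3.81 of the 246 Hk1 counts, with a downstream share of 26.1% of these few, whereas one at the median marker ratio of cones, 4.10%, left a share of 67.3%. The cone share thus depends on which rod marker sets the ratio. The upstream start had another order: it stood at 58.7 CPM in bipolar cells, 23.9 in rods, 10.8 in cones, 10.3 in Müller glia, 7.41 in ganglion cells and 6.78 in amacrine cells. Rods and bipolar cells, the 2 highest classes for Hk1 with all isoforms counted, were thus read mostly from different first exons. Most of the bipolar level, 42.9 CPM, was of the 8-exon isoform described below. The annotated full-length isoform with the upstream start stood at 15.8 CPM in bipolar cells, 10.4 in rods and 5.47 in cones.

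The upstream start itself led to 2 products. The annotated 18-exon isoform spans the whole coding sequence. An unannotated 8-exon isoform ends in a 524-nucleotide exon, chr10:62291946-62292469, that begins as the annotated 156-nucleotide exon chr10:62292314-62292469 and runs on into the intron, across the cassette exon. This 8-exon isoform made up 71.6% of Hk1 counts in bipolar cells (1245 of 1740), 55.9% in Müller glia (38 of 68), 35.5% in amacrine cells (132 of 372), 15.9% in cones (39 of 246) and 15.4% in rods (747 of 4838). Ganglion cells had 0 of 26. Among upstream starts alone it held 73.1% in bipolar cells and 60.3% in Müller glia (38 of 63). It held 56.5% of them in rods, 49.4% in cones (39 of 79) and 40.4% in amacrine cells. The intron-ending form was thus common in every class except ganglion cells, where the exact 95% upper limit for 0 of 26 counts is 13.2%. Leaving it out, also a choice made after the data were seen, gave a downstream share of 85.9% in rods, 80.7% in cones, 18.8% in amacrine cells, 16.7% in Müller glia and 7.68% in bipolar cells, with rods and cones still the highest.

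The cassette exon was in 4.41% of downstream starts in rods (155 of 3515, interval 3.75 to 5.14) and 6.59% in cones (11 of 167, interval 3.33 to 11.5), shares that overlapped. It was in 0 of 576 full-length upstream starts in rods, where 3 counts would be 0.521% and the exact 95% upper limit is 0.638%. Bipolar cells had it in 4 of 38 downstream starts and 0 of 457 full-length upstream starts (3 counts being 0.656%, upper limit 0.804%). Amacrine cells had it in 0 of 45 downstream starts and 0 of 195 full-length upstream starts (3 counts being 1.54%, upper limit 1.87%), so they show no contrast. Transcripts of the antisense gene Hk1os overlap the upstream end of Hk1 on the other strand, and the strand handling of the counting is not given in the sources used here.

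**Figure D2:**
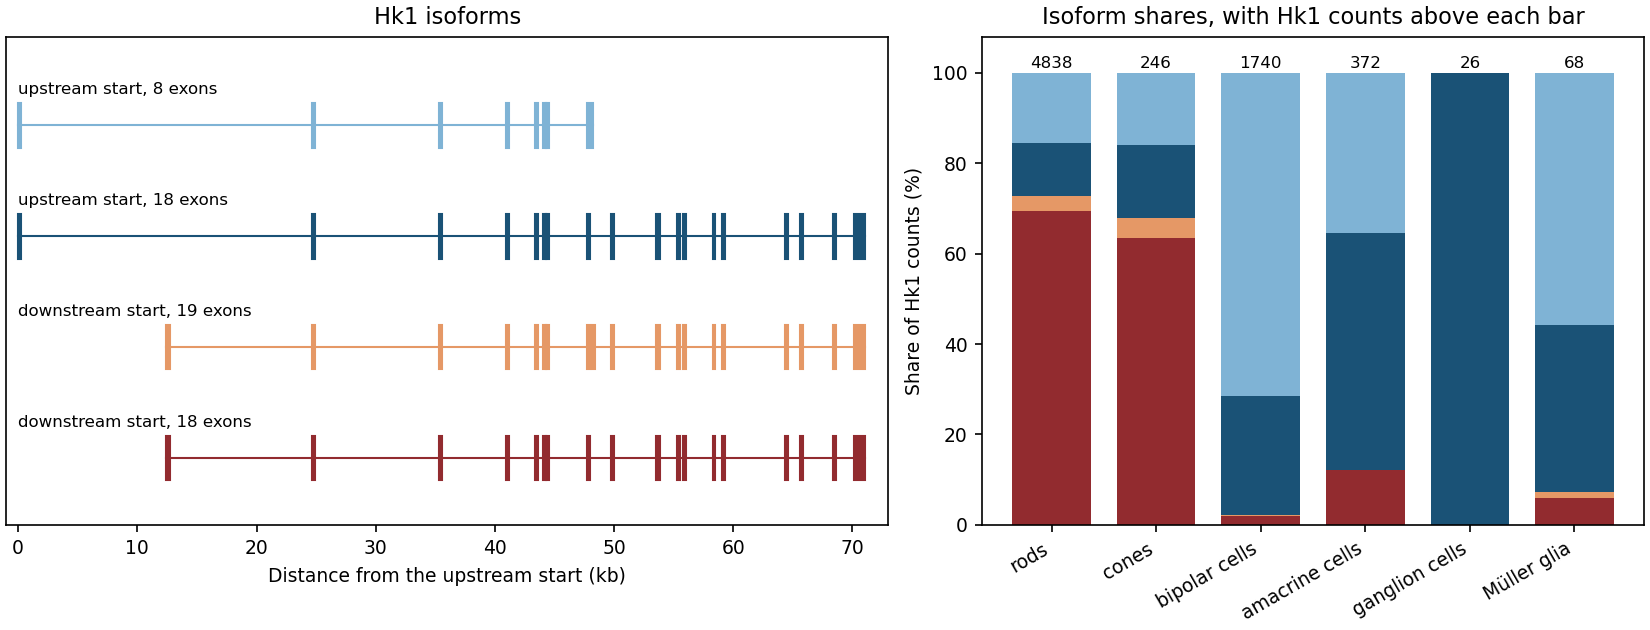
Left, exons (boxes, the short ones widened to be visible) of the 4 Hk1 isoforms by distance from the upstream start in kb; right, the share of Hk1 counts of each isoform in the same colours, with the number of Hk1 counts above each bar. The downstream starts, in red and orange, make up most counts in rods and cones, and the 8-exon isoform, in light blue, most counts in bipolar cells.

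Hk2 (chr6:82725025-82774454, minus strand), the inducible hexokinase, was read almost only in photoreceptors. It had 214 counts in rods (3.86 CPM), 59 in cones (8.07 CPM), 6 in bipolar cells (0.207 CPM) and 0 in amacrine cells, ganglion cells and Müller glia. Cones were higher than rods beyond counting error (intervals 6.15 to 10.4 and 3.36 to 4.41 CPM). Taking the classes at 0 at 3 counts each, Hk2 in cones was at least 130-fold higher than in amacrine cells, at least 16.5-fold higher than in Müller glia and at least 9.45-fold higher than in ganglion cells. The matching bounds for rods were 62.1-fold, 7.89-fold and 4.52-fold. The share of Hk2 in the counts of both hexokinases was 19.3% in cones (59 of 305, interval 15.1 to 24.2) and 4.24% in rods (214 of 5052, interval 3.70 to 4.83), and 20.1% and 4.55% per kb of isoform length. Most Hk2 counts belonged to an unannotated 4-exon isoform at the 3′ end of the gene, 69.5% in cones (41 of 59) and 66.8% in rods (143 of 214). An unannotated 17-exon isoform held 17.8% in rods (38 of 214) and 11.9% in cones (7 of 59). The annotated 18-exon transcript had 6 counts in cones and 9 in rods, so the Hk2 level rests mainly on an isoform with few of the annotated exons. That isoform is 2903 nucleotides long, beside 3330 for the annotated one. By annotated transcripts alone the Hk2 share was 13.0% in cones and 1.54% in rods, and Hk2 was no longer counted as high in rods.

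Aldoa (chr7:126795234-126800751, minus strand), the general aldolase that splits fructose 1,6-bisphosphate, stood at 6911 CPM in rods, 5994 in cones, 4722 in ganglion cells, 4523 in bipolar cells, 2934 in amacrine cells and 2099 in Müller glia. Its range, 3.29-fold, was the narrowest of the 9 members with counts in every class. The annotated 9-exon isoform held 729052 of its 729184 counts. A further 2 unannotated isoforms, with 121 and 11 counts, run on upstream into exons of a second annotated gene that shares the symbol, which has no rows of its own here.

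Aldoc (chr11:78322968-78327781, plus strand), the brain aldolase and a known marker of astrocytes, had a different profile. It stood at 2110 CPM in Müller glia, and at 789 in bipolar cells, 644 in amacrine cells, 609 in rods, 507 in cones and 459 in ganglion cells. Müller glia stood alone, 3.47-fold above the median of the other classes, and the other 5 lay between 459 and 789 CPM. Aldoc made up 50.1% of aldolase counts in Müller glia (12942 of 25813), against 18.0% in amacrine cells, 14.9% in bipolar cells, 8.86% in ganglion cells, 8.09% in rods and 7.79% in cones. Per kb the values were 47.3%, 16.4%, 13.5%, 7.99%, 7.29% and 7.02%, in the same order. In rods and cones the intervals overlapped (8.01 to 8.18% and 7.56 to 8.04%).

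Tpi1 (chr6:124810586-124814296, minus strand), which interconverts the triose phosphates made by aldolase, was ordered differently from its neighbours in the pathway. It stood at 3767 CPM in bipolar cells, 3027 in ganglion cells, 2306 in amacrine cells, 1558 in cones, 1150 in rods and 1008 in Müller glia. The inner retinal neurons were thus the 3 highest classes and rods were at 0.498 of the median of the others, just inside the 2-fold rule. With trimmed mean scaling rods were at 0.515 and ganglion cells came to 2.02-fold. All 312471 counts were of the 7-exon isoform. Spsb2 ends on the opposite strand across the last bases of the annotated gene.

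Eno1 (chr4:150236721-150248879, plus strand), the general enolase, stood at 7795 CPM in Müller glia, 4941 in rods, 2424 in cones, 2152 in bipolar cells, 1260 in ganglion cells and 899 in amacrine cells. Müller glia were 8.67-fold above amacrine cells. A near-identical copy, Eno1b, took reads equal to between 1.84% (cones) and 2.60% (ganglion cells) of the Eno1 counts, and reads of both genes may have been split between them.

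Eno2 (chr6:124760053-124769673, minus strand), known as neuron-specific enolase, stood at 19.9 CPM in ganglion cells, 13.7 in bipolar cells, 11.6 in cones, 11.5 in amacrine cells, 6.19 in rods and 1.30 in Müller glia. Müller glia, with 8 counts (interval 0.563 to 2.57 CPM), were below every neuronal class. The interval of cones (9.29 to 14.4 CPM) overlapped those of bipolar cells (12.3 to 15.1) and amacrine cells (10.6 to 12.5), which themselves met only between 12.3 and 12.5 CPM. The share of Eno2 in enolase counts was at most 1.56% (ganglion cells; 1.16% per kb) and was 0.0167% in Müller glia (0.0119% per kb). Eno2 had 7 isoforms over only 1458 counts. The annotated 12-exon isoform made up 81.6% in bipolar cells (323 of 396), 74.6% in amacrine cells (415 of 556), 62.4% in cones (53 of 85), 61.4% in ganglion cells (43 of 70) and 41.7% in rods (143 of 343). An unannotated 12-exon isoform of 2993 nucleotides made up 15.7% in rods (54 of 343) and 10.6% in bipolar cells (42 of 396). Its share was 16.5% in cones (14 of 85), 15.7% in ganglion cells (11 of 70) and 6.83% in amacrine cells (38 of 556).

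Much of the remainder in rods was the annotated 10-exon isoform of Eno2, which leaves out 2 neighbouring coding exons, chr6:124766531-124766664 (134 nucleotides) and chr6:124766105-124766327 (223 nucleotides). It made up 22.2% of Eno2 counts in rods (76 of 343, interval 17.9 to 26.9), 12.9% in cones (11 of 85, interval 6.64 to 22.0) and 12.9% in ganglion cells (9 of 70, interval 6.05 to 23.0). In amacrine cells it was 2.52% (14 of 556, interval 1.38 to 4.19) and in bipolar cells 1.26% (5 of 396, interval 0.411 to 2.92). For this 10-exon isoform alone, rods thus lay above amacrine and bipolar cells and overlapped cones and ganglion cells. An unannotated 11-exon isoform (2164 nucleotides, beside 2298 for the annotated 12-exon one) was not counted with it. That isoform made up 9.33% in rods (32 of 343) and 0.360% in amacrine cells (2 of 556), with 0 counts elsewhere. The share of the 12-exon isoform differed by up to 39.9 percentage points between bipolar cells and rods, below the 50 points of the rule, and stayed the largest in both.

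Pkm (chr9:59656368-59679375, plus strand), which makes pyruvate in the last energy-yielding step, differed most of all 10 genes in its isoforms. Its M1 exon lies at chr9:59675029-59675195 and its M2 exon at chr9:59675568-59675734. Both are 167 nucleotides long, and every Pkm isoform in the table holds 1 of them. They are shown because the choice between them is the difference measured, 5′ to 3′ from the GENCODE M21 transcripts, with the positions that differ in capitals.
Pkm M1 exon: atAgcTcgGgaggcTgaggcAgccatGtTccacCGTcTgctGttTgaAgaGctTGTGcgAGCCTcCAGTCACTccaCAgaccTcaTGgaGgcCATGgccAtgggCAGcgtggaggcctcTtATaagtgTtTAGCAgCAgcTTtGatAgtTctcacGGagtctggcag
Pkm M2 exon: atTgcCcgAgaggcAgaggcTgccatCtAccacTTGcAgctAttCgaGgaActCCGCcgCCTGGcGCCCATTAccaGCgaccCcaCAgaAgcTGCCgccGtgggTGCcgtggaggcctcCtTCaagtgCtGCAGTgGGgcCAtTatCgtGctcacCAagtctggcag
They differ at 64 positions and are 61.7% identical, so a long read that crosses either exon tells them apart by both place and sequence.

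The M2 exon was in 93.6% of Pkm counts in cones (16829 of 17976), 93.4% in Müller glia (5866 of 6281), 91.6% in rods (189592 of 206868) and 90.6% in bipolar cells (61140 of 67481). It was in 38.6% in amacrine cells (7507 of 19470, interval 37.9 to 39.2) and in 0.170% in ganglion cells (7 of 4122, interval 0.0683 to 0.350). Ganglion cells therefore read M1 nearly alone, amacrine cells a mixture with M1 in the majority, and the other 4 classes M2 with M1 in the minority. The interval of cones overlapped that of Müller glia (93.3 to 94.0 and 92.8 to 94.0), and rods and bipolar cells lay apart from these and from each other by up to 3.02 percentage points. No class other than amacrine cells came near an even mixture.

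Pkm as a whole stood at 3732 CPM in rods, 2460 in cones, 2326 in bipolar cells, 1174 in ganglion cells, 1024 in Müller glia and 404 in amacrine cells. M2 alone stood at 3420 CPM in rods, 2303 in cones, 2108 in bipolar cells and 956 in Müller glia, but at 156 in amacrine cells and 1.99 in ganglion cells. M1 alone stood at 1172 CPM in ganglion cells, 312 in rods, 248 in amacrine cells and 219 in bipolar cells, with 157 in cones and 67.7 in Müller glia. Amacrine cells and rods thus had M1 levels close to each other (79.6% of the rod level in amacrine cells), while the amacrine M2 level was 4.55% of that in rods. Amacrine cells were the lowest class for total Pkm but stood above bipolar cells, cones and Müller glia for M1.

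The M2 level outside photoreceptors can be set beside rod markers. In amacrine cells M2 stood at 4.55% of its rod level, above each of the 6 rod markers there (0.554% to 0.969%). In bipolar cells it stood at 61.6%, with rod markers at 1.54% to 14.3%, and in Müller glia at 28.0%, with rod markers at 0.984% to 11.6%. Subtracting rod counts at the highest of these marker ratios, an alternative chosen after the data were seen, left M2 at 33.3% of Pkm in amacrine cells, 90.3% in bipolar cells, 94.6% in Müller glia and 99.1% in cones. The cone value rests on the 25.8% of Pkm counts that remained there. At the median marker ratio of cones, 4.10%, the cone share was 93.7%, so it depends on which rod marker sets the ratio. Müller glia markers summed to 934 CPM and ganglion cell markers to 693 CPM in the amacrine column, against 46646 and 17759 CPM in their own, and horizontal cell markers were highest in the amacrine column at 72.9 CPM. The part of those cells in the amacrine mixture was not tested.

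Other first exons were rare in Pkm. Starts other than the annotated one of M1 and M2 made up 0.591% of counts in amacrine cells (115 of 19470), 0.164% in rods, 0.0978% in bipolar cells and 0.0278% in cones, with 0 counts in Müller glia and ganglion cells. There 3 counts would be 0.0478% and 0.0728%, and the exact 95% upper limits are 0.0587% and 0.0895%. A single-exon isoform that the table assigns to no named gene, chr9:59674677-59675879 on the same strand, crosses both the M1 and the M2 exon and the intron between them. It had 103 counts, of which 77 were in rods, 12 in bipolar cells, 11 in amacrine cells and 3 in cones. It was left out of the Pkm counts, as was an 11-count isoform, all in rods, that joins the start of Pkm to the neighbouring gene Gramd2.

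**Figure D3:**
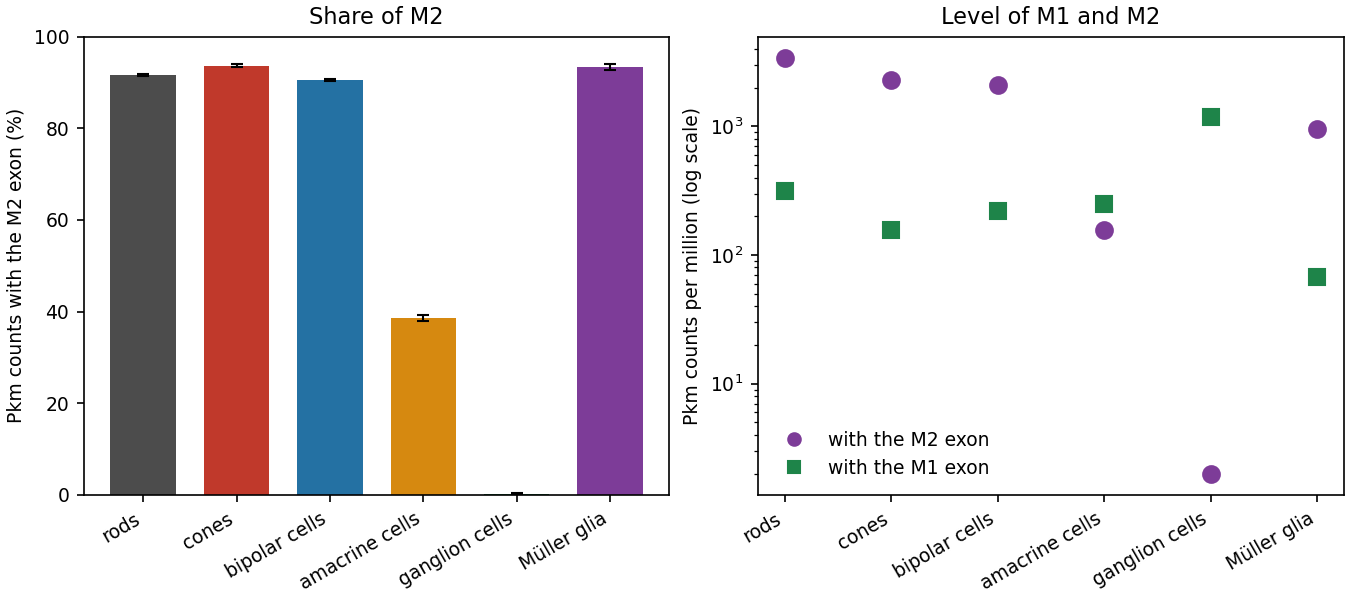
Left, percent of Pkm counts that hold the M2 exon in each class, with exact 95% binomial intervals; right, the level of M2 (circles) and M1 (squares) in CPM on a log axis. M2 exceeds M1 in 4 classes, M1 exceeds M2 by 248 to 156 CPM in amacrine cells, and M2 is at 1.99 CPM in ganglion cells.

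Ldha (chr7:46841475-46855627, plus strand), the A subunit, stood at 3893 CPM in rods, 2579 in cones, 1094 in bipolar cells, 890 in amacrine cells, 843 in Müller glia and 738 in ganglion cells. Both photoreceptor classes lay above all others, by 4.38-fold and 2.90-fold over the median of the rest. Ldhb (chr6:142490249-142507957, minus strand), the B subunit, ran the other way, with 1269 CPM in Müller glia, 832 in amacrine cells, 762 in ganglion cells, 348 in cones, 217 in rods and 81.9 in bipolar cells. The range of Ldhb over the classes was 15.5-fold and that of Eno2, which rests on 8 counts in Müller glia, 15.3-fold, the 2 widest of the members with counts in every class.

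The B share of lactate dehydrogenase counts divided the classes into those near an even mixture and those with mostly A. It was 60.1% in Müller glia (7783 of 12953), 50.8% in ganglion cells (2674 of 5265) and 48.3% in amacrine cells (40163 of 83088). It was 11.9% in cones (2542 of 21390), 6.97% in bipolar cells (2376 of 34099) and 5.28% in rods (12036 of 227836). Per kb the shares were 64.7%, 55.8%, 53.3%, 14.1%, 8.35% and 6.38%, in the same order. The classes with the lowest B share, rods, bipolar cells and cones, were also those with the highest levels of Pkm M2, whereas Müller glia combined a 93.4% M2 share with the highest B share.

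**Figure D4:**
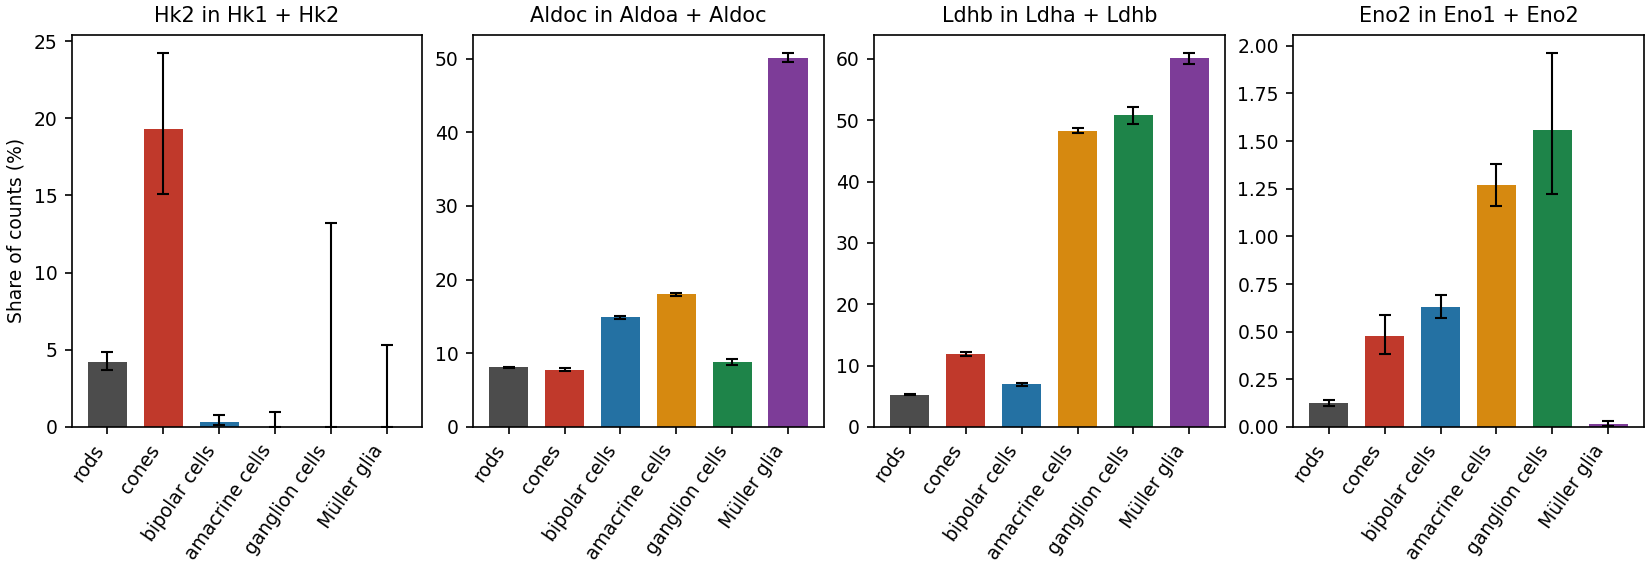
Share of the second gene in the summed counts of each pair of related genes, in percent by class, with exact 95% binomial intervals; each panel has its own scale. Hk2 is highest in cones at 19.3%, Aldoc and Ldhb in Müller glia at 50.1% and 60.1%, and Eno2 in ganglion cells at 1.56%.

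Ldhb also had an unannotated isoform that skips the coding exon before the last, chr6:142492493-142492616. The exon is 124 nucleotides long, not a whole number of codons, so the reading frame after it shifts. Its sequence, from the GENCODE M21 transcript (GRCm38, minus strand), shows what these reads lack.
Ldhb exon: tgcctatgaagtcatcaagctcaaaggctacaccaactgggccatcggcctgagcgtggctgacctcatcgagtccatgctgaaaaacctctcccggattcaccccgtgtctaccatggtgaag
The skipping isoform made up 6.84% of Ldhb counts in rods, 5.46% in ganglion cells and 5.13% in amacrine cells. It made up 1.97% in Müller glia, 1.69% in cones and 1.52% in bipolar cells. The 3 higher and the 3 lower classes did not overlap, and the split separated rods from cones.

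**Figure D5:**
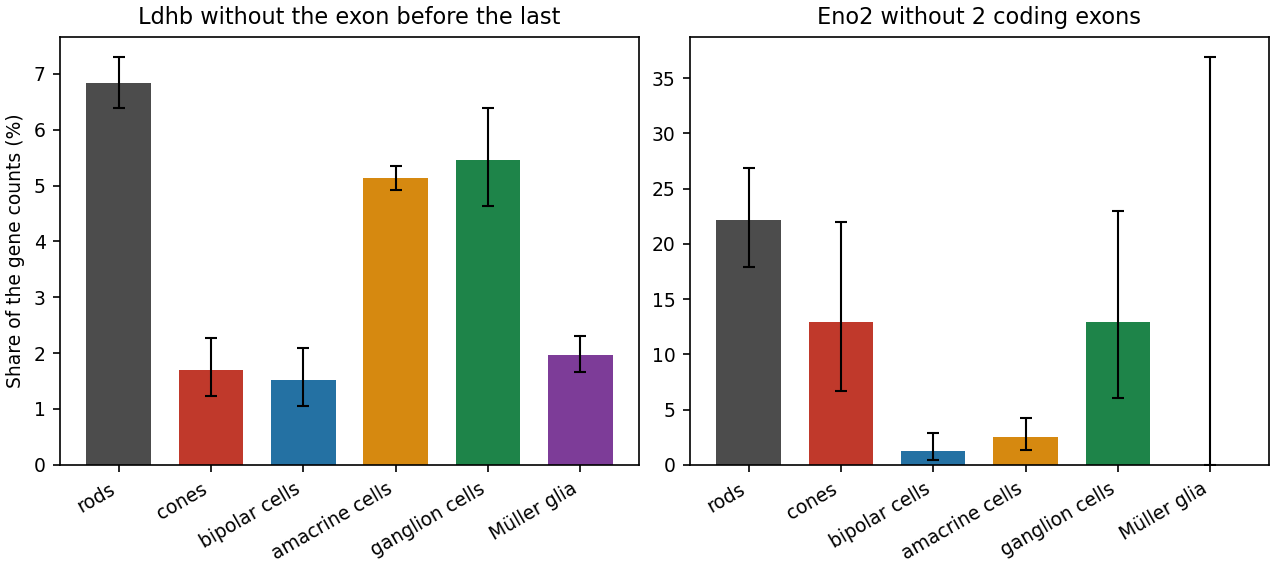
Share of gene counts, in percent by class with exact 95% binomial intervals. Left, the Ldhb isoform that skips the exon before the last. Right, the Eno2 10-exon isoform that leaves out both coding exons named above, without the 11-exon isoform. Rods are highest in both, at 6.84% and 22.2%; Müller glia had only 8 Eno2 counts, so that bar is 0 with a wide interval.

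Of 18 other glycolytic genes listed, 14 were in the table. In bipolar cells 5 of the 14 were high (18.1% of all genes were) and 1 was low (10.2% were), with a median log2 difference of 0.79 over the other classes, beside 0.13 for all genes. In amacrine cells 2 were high (22.6% of all genes) and 4 low (20.1%), and in cones 1 was high (15.2%) and 1 low (12.2%). Müller glia had 4 high (21.5%) and 1 low (14.0%). In rods 1 was high (21.0%) and 4 were low (17.2%), and in ganglion cells 0 were high (14.8%) and 5 were low (17.6%). Some of these calls rest on weakly read genes, Pgam2, Eno3 and Ldhd, with 754, 215 and 77 counts in all. Beside Pfkm, these were the genes low in rods, at 0.0722, 0.198 and 0.0722 CPM. They also gave calls elsewhere, such as the high ones in amacrine cells (Pgam2 and Ldhd) and cones (Eno3). Pgam1, the general phosphoglycerate mutase, stood at 4363 CPM in bipolar cells, 2270 in cones, 2187 in rods, 1271 in amacrine cells, 1021 in Müller glia and 950 in ganglion cells. Pfkp, a phosphofructokinase subunit, was high in Müller glia (131 CPM), bipolar cells (126) and rods (124) and low in cones (54.3), ganglion cells (23.9) and amacrine cells (11.4). Pfkm, the muscle-type subunit, was low in rods at 3.12 CPM and stood between 11.4 and 28.6 CPM elsewhere. Hkdc1, a further hexokinase relative, stood at 10.6 CPM in Müller glia and at most 0.552 CPM in the other classes. Gapdh, between the aldolase and enolase steps, had 9927 counts and varied least of the 14, from 41.4 CPM in Müller glia to 73.5 in rods.

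Genes whose profile over the 6 classes was most like that of a member were ranked by Pearson's r of log2(CPM + 1) among 5226 genes with at least 1000 counts, as a description over 6 pooled columns that share libraries and depth. Those nearest to Pkm were Mrpl39 (r = 0.9858), Armt1 and Rfc4. Nearest to Hk1 were Cct5 (r = 0.9891), Sugp1 and Srp54b. Pearson's r takes no account of the size of a change. Mrpl39 ran only from 52.9 to 119 CPM, against 404 to 3732 for Pkm, although Rfc4 ran from 8.21 to 64.7. Cct5 ran from 187 to 328 CPM, against 7.41 to 87.3 for Hk1. Nearest to Hk2 were Arl6 (r = 0.9938), Gsc2 and Sugp2, with Arl6 at 1304 CPM in cones and 830 in rods against at most 167 elsewhere. Nearest to Aldoc were Myl12a (r = 0.9950), Slc16a8 and Gpr37, each highest in the Müller glia column. That column also held markers of other cells, such as pigment epithelium at 8805 CPM, whose part in these values was not tested.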

How the data were processed

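The authors deposited counts of each isoform, as whole numbers by cell class, and isoform models credited to FLAIR in the annotation file. The build is mm10, per the submitters' processing notes. Cell calling, typing, and whether reads were collapsed to molecules are not given in the sources used here. Counts were summed per Ensembl gene identifier and scaled to 1000000 per column (CPM). Exons were read from the models and compared with GENCODE M21, which also gave gene positions and sequences. No test between classes was made, since each class is 1 pooled column, and 0 columns were left unused. Every member is named, with its leading isoform and those of at least 10% of a gene's counts in a class of 100 or more counts. A further gene was left out of the list of other glycolytic genes and is not reported here. The members and lists were chosen with earlier results of these data known. The code for class and switch calls was checked on simulated counts with known changes. Alternatives covered scaling (trimmed mean of M-values, median of ratios), isoform filters, depth thinned to 3509890 counts and length. Python 3.11.15, pandas 2.3.3 and SciPy 1.17.1 were used.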

Additional observations from a re-analysis of the deposited data

How the results depend on the processing

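No paired analysis was possible because no column is tied to a library, and leaving out a replicate was not possible for the same reason. The limits are therefore those of 6 pooled columns: intervals cover counting error only, and ganglion cells (26 Hk1 counts) and Müller glia (68 Hk1 and 8 Eno2 counts) set the precision. The 2 genes with an isoform switch stayed 2 with a minimum of 20 counts, with 25 percentage points and with isoforms of the same introns summed. The Pkm M2 shares moved by less than counting error under the isoform filter, annotated transcripts and equal depth. With rod RNA subtracted at the highest rod marker ratio, chosen after the data were seen, the M2 share was 33.3% in amacrine cells, 90.3% in bipolar cells, 94.6% in Müller glia and 99.1% in cones. At the median marker ratio the M2 share was 93.7% in cones. The Hk1 downstream share at the highest ratio was 5.01% in amacrine cells, 26.1% in cones and 0 in bipolar cells and Müller glia. At the median marker ratio the Hk1 downstream share was 67.3% in cones. Without the 8-exon isoform, also chosen after the data were seen, that downstream share was 85.9% in rods, 80.7% in cones, 18.8% in amacrine cells, 16.7% in Müller glia and 7.68% in bipolar cells. With Ensembl transcripts only it was 0 in rods, cones, amacrine cells, bipolar cells and Müller glia, because both isoforms with that start are unannotated.

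Per length, the Aldoc share was 47.3% in Müller glia, 16.4% in amacrine, 13.5% in bipolar and 7.99% in ganglion cells, 7.29% in rods and 7.02% in cones. The Ldhb share was 64.7%, 53.3%, 8.35%, 55.8%, 6.38% and 14.1% in that order of classes. The Eno2 share was 1.16% in ganglion, 0.939% in amacrine and 0.464% in bipolar cells, 0.0947% in rods and 0.355% in cones. Thinned to equal depth, rods had an Aldoc share of 8.19%. With Ensembl transcripts only, the Hk2 share was 13.0% in cones and 1.54% in rods, the Ldhb share 47.0% in amacrine cells, 4.94% in rods and 49.4% in ganglion cells, and the Eno2 share 1.16% in ganglion, 0.980% in amacrine and 0.523% in bipolar cells, 0.0799% in rods and 0.360% in cones.

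Under the median of ratios, which shifted columns by log2 values from -0.2 (amacrine cells) to 0.25 (Müller glia), 0 members were high in amacrine cells and in ganglion cells, 0 were low in cones, and 2 were low in Müller glia and in ganglion cells. Under the trimmed mean of M-values, with shifts from -0.07 to 0.07, 1 member was low in rods and 2 were high in ganglion cells. With Ensembl transcripts only, 2 members were low in amacrine cells, 3 were high in rods and 0 were low in ganglion cells. The cause was not tested, apart from the isoforms and lengths each setting removes.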

Other observations

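Of 22 regulators and neighbouring steps listed, 21 were in the table. In rods 6 were high and 2 low (21.0% and 17.2% of all genes), in bipolar cells 6 and 3 (18.1% and 10.2%), and in amacrine cells 6 and 5 (22.6% and 20.1%). Cones had 4 and 3 (15.2% and 12.2%), ganglion cells 3 and 5 (14.8% and 17.6%), and Müller glia 2 and 3 (21.5% and 14.0%). The genes given next were named after their values were seen. Slc2a1, the main glucose transporter of barrier cells and glia, stood at 401 CPM in the Müller glia column, between 40.6 and 55.7 CPM in rods, cones and bipolar cells, 12.9 in amacrine cells and 6.27 in ganglion cells. The Müller glia column also held pigment epithelium markers at 8805 CPM, whose part in this value was not tested. Slc16a1, a lactate transporter, stood at 49.9 CPM in Müller glia, 42.5 in rods and 19.6 in cones, with 4.48 in bipolar cells, 2.07 in amacrine cells and 0 counts in ganglion cells. Pfkfb2, which makes an activator of phosphofructokinase, stood at 7.68 CPM in rods and at most 1.23 CPM in any other class. Mpc1, a subunit of the mitochondrial pyruvate carrier, stood at 235 CPM in amacrine cells, 189 in ganglion cells, 113 in bipolar cells, 81.7 in Müller glia, 56.0 in cones and 41.0 in rods. Mpc2, the partner subunit, was neither high nor low in any class and had another order, from 1210 CPM in bipolar cells and 1208 in amacrine cells to 788 in ganglion cells and 723 in rods. Pdk2, a kinase that inhibits pyruvate dehydrogenase, stood at 43.5 CPM in amacrine cells and 29.1 in ganglion cells and between 4.10 and 13.7 CPM elsewhere. The related kinase Pdk1 stood at 4.83 CPM in amacrine cells, 4.26 in rods, 1.76 in bipolar cells and at most 0.285 elsewhere, and Pdk3 between 8.48 (Müller glia) and 31.5 CPM (cones).

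Of 8 splicing factors known to act at the Pkm exons, 4 were high in rods (21.0% of all genes were) and 0 were low. In amacrine cells 2 were high and 2 low, in bipolar cells 2 and 0, in Müller glia 1 and 1, in ganglion cells 0 and 2, and in cones 0 and 0, beside the shares of all genes given above. Ptbp1, which represses the M1 exon, stood at 18.0 CPM in rods, 14.0 in Müller glia, 10.3 in bipolar cells, 6.57 in cones, 5.87 in amacrine cells and 0 in ganglion cells, where 3 counts would be 0.855 CPM. Hnrnpa2b1, another repressor of M1, stood between 16.3 and 22.2 CPM in cones, rods, bipolar cells and Müller glia, and at 5.62 in amacrine cells and 2.28 in ganglion cells. Both, named after their values were seen, were lowest in the 2 classes in which M1 was the larger share, although Ptbp1 in cones was close to its amacrine level. Others of the list had other orders. Hnrnpa1, also known to repress the M1 exon, was highest in amacrine cells at 176 CPM, with 119 to 164 in the classes with mostly M2 and 89.2 in ganglion cells. Ptbp3 was high in amacrine cells (1.47 CPM) and rods (1.05). Srsf3 stood at 1085 CPM in rods, 681 in cones, 655 in Müller glia, 653 in amacrine cells, 589 in bipolar cells and 376 in ganglion cells. It was thus lowest in ganglion cells, while amacrine cells lay among the classes with mostly M2. These are levels in 6 pooled columns, and no relation between factor and exon was tested.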
